A study of Mus musculus with 28 samples.

Results

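The 9 genes *Six3*, *Six3os1*, *Otx1*, *Otx2*, *Nr2e1*, *Emx2*, *Lhx2*, *Dlx1* and *Dlx2* encode transcription factors of the forebrain, or in the case of *Six3os1* a non-coding RNA transcribed opposite *Six3*. They were taken by name from the 28244 genes of the count matrix. They were chosen by name and partly selected on their CPM in peripheral neural stem cells (pNSCs), which earlier results of these data showed to be low. Their levels in pNSCs and in brain neural stem cells (brain NSCs) are therefore descriptions without a test.

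RNA-seq of poly-A RNA was read from 28 cultures or tissue-cell samples in 11 groups, all labelled as strain C57BL/6. The study's text instead gives its wild-type mice a CD1 or mixed CD1 and C3H background. It adds that transgenic mice were bred with these, so a shared inbred strain cannot be assumed. In the first experiment, Brain-NSC, Lung-pNSC and Tail-pNSC cultures were sequenced beside lung and tail tissue cells (lung cells and tail cells), with 2 samples in each group. These labels name no reporter, and the groups match the Nes-GFP experiment of the study, in which GFP+ cells of Nes-GFP mice were sorted. In the second experiment, brain NSCs and lung pNSCs of Sox2-GFP mice had 3 samples each. In the third, brain NSCs, tail pNSCs and dorsal root ganglion (DRG) pNSCs of Wnt1Cre-mTmG mice, and DRG neural crest stem cells (NCSCs) of wild-type mice, had 3 samples each. In Wnt1Cre-mTmG mice, Cre under the *Wnt1* promoter turns cells of the neural crest and their descendants from Tomato+ to GFP+, and the study took pNSCs that were Tomato+ and GFP-. Donor mice were 4 to 6 weeks old (adult brain and lung) or at postnatal day 1 to 5 (brain, lung, tail and DRG). By the study's text, the Nes-GFP lung pNSCs, matched here to Lung-pNSC, came from adult lung. Its Sox2-GFP lung pNSCs came from postnatal lung, and tail and DRG pNSCs from postnatal mice. Donor age thus differs between the 2 lung pNSC groups. The DRG NCSCs came from adult mice by the same text, and the labels do not give the age behind each brain NSC culture. All NSC and pNSC cultures grew in medium with EGF and bFGF. The pNSCs were started from picked clusters of cells that were usually clonal, so a pNSC group may stand for 1 clone, and brain NSCs came from dissociated whole brain. The study calls the samples of a group biological replicates, and no source used here says whether they came from separate animals or cultures. The p-values measure only the spread between these samples.

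The vertebrate forebrain is laid out by homeodomain and nuclear receptor proteins that mark its front end, its cortex and its ventral part. Six3, Otx1 and Otx2 act early in the head and keep the front of the neural plate from taking a more posterior fate. Emx2 and Lhx2 pattern the cortex and hippocampus, Nr2e1 (Tlx) keeps forebrain neural stem cells dividing, and Dlx1 and Dlx2 drive the making of interneurons in the ventral forebrain. Several are also used outside it: Lhx2 in hair follicles and limbs, Emx2 in the urogenital system and shoulder, and the Dlx genes in jaw, limb and skin.

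Total counts per sample ran from 9808246 to 22637031, and the Wnt1Cre-mTmG brain NSCs and DRG pNSCs were the shallowest groups. Levels are given as CPM, counts scaled to a library of 1000000 counts, with library sizes adjusted by TMM over all 28 samples. A limit of 3 counts per sample, 0.130 to 0.295 CPM, was taken as the smallest detectable amount and covers counting error only. A ratio to a group whose samples were all at or under 3 counts is given as a bound, computed with 3 counts in each of its samples. All 5 neural stem cell markers (*Sox2*, *Sox1*, *Nes*, *Olig2*, *Fabp7*) were detected in each brain NSC and pNSC group, with summed levels of 4291 to 6339 CPM. Of the neural crest markers, *Sox10* was at 0 to 15.5 CPM in those groups and at 646 to 902 CPM in the DRG NCSCs, and *Ngfr* was at 0.195 to 3.67 CPM and at 1186 to 1234 CPM. The 3 astrocyte markers (*Aqp4*, *Gfap*, *Aldh1l1*) were all detected in the brain NSCs and moved with the comparison of brain NSCs and pNSCs. They summed to 88.2 to 89.7 CPM in Brain-NSC against 19.8 to 23.2 CPM in Lung-pNSC and 5.43 to 6.49 CPM in Tail-pNSC. In Sox2-GFP cultures they summed to 846 to 854 CPM in brain NSCs and 61.8 to 64.3 CPM in lung pNSCs. In Wnt1Cre-mTmG cultures they summed to 1108 to 1135 CPM in brain NSCs, 89.2 to 93.4 CPM in tail pNSCs and 163 to 170 CPM in DRG pNSCs. The 5 fibroblast markers (*Col1a1*, *Col1a2*, *Dcn*, *Lum*, *Pdgfra*) moved too. They summed to 225 to 229 CPM, with all 5 detected, in Wnt1Cre-mTmG tail pNSCs, to 13.4 to 18.3 CPM in DRG pNSCs and to 29.2 to 29.7 CPM in their brain NSCs. In Sox2-GFP cultures they summed to 93.6 to 100.2 CPM in brain NSCs and 21.4 to 24.4 CPM in lung pNSCs, and in Brain-NSC, Lung-pNSC and Tail-pNSC to 6.92 to 10.97 CPM. The part of such cells in the results below was not tested. Microglia and macrophage markers summed to at most 0.424 CPM in every brain NSC and pNSC group. In bulk samples, fewer expressing cells and less RNA per cell cannot be told apart. DRG NCSC replicate 3 stood apart from the other samples of its group, with a chi-square per gene of 16.8 and 21.0 against them. DRG NCSC replicates 1 and 2 differed by 2.22. Brain NSC and pNSC samples of a group differed by only 1.09 to 1.41 in the Sox2-GFP and Wnt1Cre-mTmG experiments. In the first experiment samples of a group differed by 1.61 to 2.82. The small p-values below rest on this small spread, and whether samples were repeats of 1 culture was not tested.

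The genes lie at 7 loci on 6 autosomes (GRCm38). *Six3* (chr17:85613608-85629302, + strand) and *Six3os1* (chr17:85600651-85618398, - strand) overlap head to head. *Dlx1* (chr2:71528113-71533981, +) and *Dlx2* (chr2:71543408-71546754, -) are neighbours, and *Lhx2* (chr2:38339281-38369733, +) lies elsewhere on the same chromosome. *Otx1* is at chr11:21994764-22002897 (-), *Otx2* at chr14:48657677-48673819 (-), *Nr2e1* at chr10:42561963-42583632 (-) and *Emx2* at chr19:59458372-59465357 (+). *Emx2*, *Otx2* and *Dlx1* overlap the antisense genes *Emx2os*, *Otx2os1* and *Dlx1as*, and *Lhx2* overlaps *Gm27197* and *Gm13584*. Whether counting used strand is not given in the sources used here, so reads from such a gene and its antisense partner cannot be told apart where they overlap.

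The 250 bases before the transcription start are shown for the member that was detected in every pNSC group, *Lhx2*, and for one that had no count in any pNSC sample, *Otx2*. The sequences are from RefSeq (GRCm38.p6) and run 5′ to 3′ on the strand of the gene, chr2:38339031-38339280 (+) for *Lhx2* and chr14:48667645-48667894 (-) for *Otx2*. Neither window overlaps a protein-coding exon, and the *Otx2* window lies within the body of longer *Otx2* transcripts. Capitals mark each CpG, the dinucleotide that can carry DNA methylation.
Lhx2: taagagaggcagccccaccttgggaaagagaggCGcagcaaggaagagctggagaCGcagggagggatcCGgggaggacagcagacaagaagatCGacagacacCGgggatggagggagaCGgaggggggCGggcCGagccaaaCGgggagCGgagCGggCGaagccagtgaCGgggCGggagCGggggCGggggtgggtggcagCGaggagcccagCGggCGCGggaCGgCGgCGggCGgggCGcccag
Otx2: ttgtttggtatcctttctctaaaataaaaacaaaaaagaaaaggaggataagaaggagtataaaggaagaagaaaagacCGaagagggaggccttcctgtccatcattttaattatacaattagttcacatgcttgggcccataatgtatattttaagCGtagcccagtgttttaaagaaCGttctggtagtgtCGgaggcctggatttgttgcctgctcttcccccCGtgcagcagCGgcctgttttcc
The *Lhx2* window held 25 CpGs and 72.8% G and C, and the *Otx2* window held 6 CpGs and 42.0%. Over the 32841 promoter windows of the same length the medians were 6 CpGs and 52.4%. Both genes had other windows, with 24 CpGs for *Lhx2* and 8 to 14 for *Otx2*. RefSeq windows were matched for 8 of the 9 members. The other matched members had 10 (*Six3*), 15 (*Nr2e1*), 19 (*Six3os1*), 22 (*Dlx1*) and 24 CpGs (*Emx2* and *Dlx2*). *Six3os1*, with 19, was at or under 3 counts in every pNSC sample. A link between CpGs and levels was not tested. No methylation or binding was measured in these samples.

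*Six3*, a homeodomain factor of the anterior neural plate and eye field, was detected in all brain NSC groups at very unequal levels. It stood at 1.72 and 1.36 CPM in the samples of Brain-NSC, at 9.28, 10.6 and 10.2 CPM in Sox2-GFP brain NSCs and at 60.8, 62.6 and 64.1 CPM in Wnt1Cre-mTmG brain NSCs. Of the pNSCs, Lung-pNSC had 2.99 and 3.80 CPM, above both Brain-NSC samples and 2.2-fold higher in the mean. No other pNSC group came near its own brain NSCs. Sox2-GFP lung pNSCs had 0.144, 0.325 and 0.266 CPM, 41.0-fold lower than the matched brain NSCs. Tail-pNSC and Wnt1Cre-mTmG tail pNSCs had no count in any sample, at least 9.55-fold and at least 446-fold lower. DRG pNSCs had 1 count in 1 of 3 samples, at least 224-fold lower. The 6 lowest groups (DRG NCSC, DRG pNSC, both tissue-cell groups and both tail pNSC groups) overlapped in range, and the 5 groups above them did not overlap with each other.

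*Six3os1* was the most unequal member among brain NSCs. The Wnt1Cre-mTmG brain NSCs had 149, 154 and 150 CPM, the Sox2-GFP brain NSCs 19.9, 19.6 and 18.8 CPM and Brain-NSC 0.456 and 0.244 CPM. Every pNSC group was at or under 3 counts in every sample, with a single count in 1 of the 13 pNSC samples. The pNSCs were at least 1080-fold lower in Wnt1Cre-mTmG tail, at least 541-fold lower in DRG and at least 140-fold lower in Sox2-GFP lung. The bound was only 2.26-fold in Lung-pNSC and 2.16-fold in Tail-pNSC, since Brain-NSC itself had 9 and 5 counts. In Lung-pNSC the 2 genes of the locus parted: *Six3* was above Brain-NSC and *Six3os1* had no count.

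*Otx1*, a homeodomain factor of forebrain and midbrain, was at 12.4 to 21.2 CPM in every brain NSC sample. Lung-pNSC had 5.60 and 5.30 CPM against 16.5 and 18.4 CPM in Brain-NSC, 3.21-fold lower. Tail-pNSC had 0.685 and 0.963 CPM, 21.2-fold lower and overlapping with the lung cells (0.652 and 0.810 CPM) and tail cells (0.618 and 0.829 CPM). In Sox2-GFP lung pNSCs it was at 1.00, 0.929 and 0.755 CPM against 19.6, 21.2 and 19.8 CPM, 22.6-fold lower. Wnt1Cre-mTmG tail pNSCs had no count, at least 89.8-fold lower than 12.6, 12.4 and 12.8 CPM, and DRG pNSCs had 0.508, 0.197 and 0.0962 CPM, 47.1-fold lower, with 6 counts in replicate 1 and 1 or 2 in the others. The brain NSCs held the 3 highest places in the order of groups and did not overlap with each other or with any pNSC group.

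*Otx2*, its paralogue, was the one member with no count in any pNSC, NCSC or tissue-cell sample. Sox2-GFP brain NSCs had 28.9, 28.4 and 26.7 CPM, Brain-NSC 3.09 and 2.73 CPM and Wnt1Cre-mTmG brain NSCs 2.05, 1.64 and 1.44 CPM. The pNSCs were thus at least 202-fold lower in Sox2-GFP lung, at least 18.8-fold in Lung-pNSC, at least 18.0-fold in Tail-pNSC, at least 12.2-fold in Wnt1Cre-mTmG tail and at least 6.13-fold in DRG. These bounds followed the level in the brain NSCs, since all pNSC samples were at 0.

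*Nr2e1*, the orphan nuclear receptor of forebrain stem cells, was at like levels in all brain NSC groups. It stood at 41.1 and 39.1 CPM in Brain-NSC, at 38.3, 39.6 and 38.8 CPM in Wnt1Cre-mTmG brain NSCs and at 25.3, 24.8 and 24.4 CPM in Sox2-GFP brain NSCs. Lung-pNSC kept 4.60 and 5.19 CPM, 8.19-fold lower than Brain-NSC and above every other group that was not brain NSCs. Sox2-GFP lung pNSCs had 0, 0.139 and 0.311 CPM, 165-fold lower, with replicate 3 alone above 3 counts. It had no count in Tail-pNSC (at least 248-fold lower) or DRG pNSCs (at least 139-fold lower). Wnt1Cre-mTmG tail pNSCs had 3 counts in 1 of 3 samples, at least 278-fold lower. The 7 lowest groups overlapped in range.

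**Figure D1:**
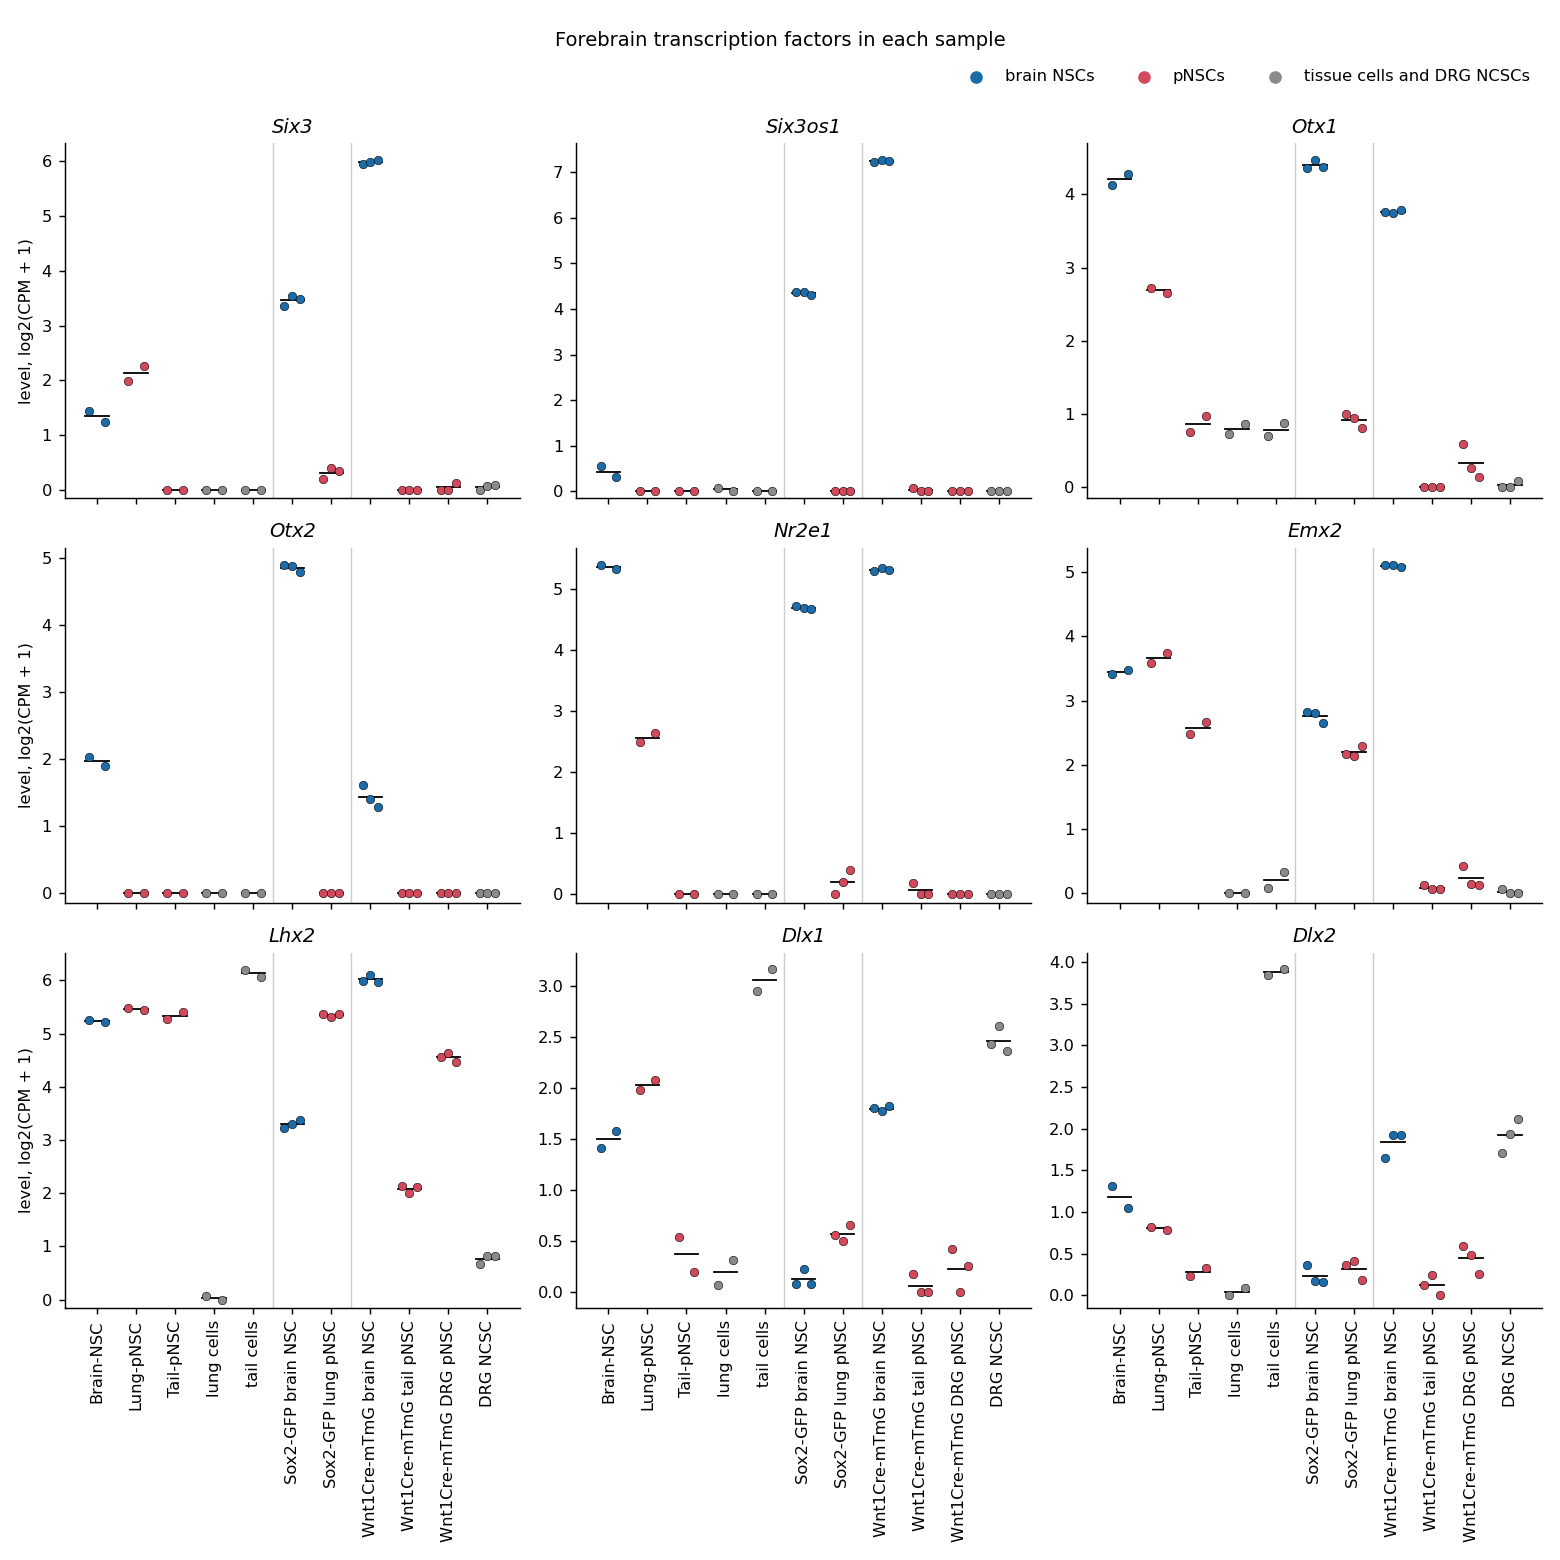
Level of each member in every sample, as log2 of CPM plus 1, by group, with 1 point per sample and a line at the mean of the group. Grey vertical lines part the 3 experiments. *Six3*, *Otx1* and *Nr2e1* are well above 0 in Lung-pNSC, *Otx2* is at 0 in all 13 pNSC samples, and *Lhx2* is above 0 in all of them.

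*Emx2*, a homeodomain factor of cortex and hippocampus, split the pNSCs into groups near their brain NSCs and groups near 0. Lung-pNSC had 11 and 12.4 CPM against 9.69 and 10.1 CPM in Brain-NSC, 1.18-fold higher with no overlap. Tail-pNSC had 4.57 and 5.32 CPM, 2.00-fold lower, and Sox2-GFP lung pNSCs 3.49, 3.39 and 3.91 CPM against 6.11, 5.97 and 5.28 CPM, 1.61-fold lower. The Wnt1Cre-mTmG pNSCs stood far from these. Tail pNSCs had 0.0874, 0.0460 and 0.0503 CPM where brain NSCs had 33.7, 33.5 and 32.8 CPM, which made them at least 238-fold lower. DRG pNSCs had 0.339, 0.0985 and 0.0962 CPM, 187-fold lower, with 4 counts in replicate 1 and 1 in each of the others. Lung cells had no count, and tail cells had 0.0562 and 0.255 CPM, so *Emx2* was higher in the Lung-pNSC and Tail-pNSC cultures than in the tissue cells sequenced beside them.

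*Lhx2*, a LIM-homeodomain factor of cortex and eye, was the only member with more than 3 counts in every pNSC sample. Lung-pNSC had 43.7 and 42.6 CPM and Tail-pNSC 37.6 and 41.3 CPM, all above the 37.2 and 36.3 CPM of Brain-NSC, 1.17-fold and 1.07-fold higher in the mean. The gap of Tail-pNSC was smaller than the spread between its own samples. Sox2-GFP lung pNSCs had 40.4, 38.7 and 40.2 CPM against 8.36, 8.86 and 9.35 CPM in brain NSCs, 4.49-fold higher. In the Wnt1Cre-mTmG cultures the order was the opposite: DRG pNSCs had 22.7, 23.8 and 21.1 CPM and tail pNSCs 3.41, 3.04 and 3.32 CPM, against 62.6, 67.2 and 61.5 CPM in brain NSCs, 2.83-fold and 19.6-fold lower. Sox2-GFP lung pNSCs, Lung-pNSC and Tail-pNSC thus lay between 37.6 and 43.7 CPM, while the brain NSCs ranged from 8.36 to 67.2 CPM. Tail cells had 72.6 and 66.2 CPM, the highest mean of all groups and overlapping with Wnt1Cre-mTmG brain NSCs, lung cells had 1 count in 1 of 2 samples, and DRG NCSCs had 0.602, 0.756 and 0.758 CPM.

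*Dlx1* and *Dlx2*, homeodomain factors of ventral forebrain interneurons, were at low counts in most cultures and higher in tail cells. Tail cells had 6.74 and 7.97 CPM of *Dlx1* and 13.3 and 14.0 CPM of *Dlx2*, and DRG NCSCs 4.40, 5.10 and 4.14 CPM of *Dlx1*. Tail cells were above every brain NSC sample for both genes, and DRG NCSCs were above them for *Dlx1*. Brain-NSC had 1.67 and 2.00 CPM of *Dlx1* and Lung-pNSC 2.94 and 3.24 CPM, 1.68-fold higher. For *Dlx2* the order was the opposite, with 1.47 and 1.07 CPM in Brain-NSC and 0.759 and 0.726 CPM in Lung-pNSC, 1.71-fold lower. Tail-pNSC was 6.03-fold lower for *Dlx1* and 5.99-fold lower for *Dlx2*, on 3 to 8 counts per sample, the highest being *Dlx1* in replicate 1, without which 0.152 CPM was left against 1.84 CPM in Brain-NSC. Wnt1Cre-mTmG tail pNSCs were at least 17.7-fold lower for *Dlx1* and 28.5-fold lower for *Dlx2*, and DRG pNSCs 14.0-fold and 7.07-fold lower. These pNSC samples held 0 to 6 counts, and those of *Dlx2* in tail and *Dlx1* in DRG passed 3 counts in 1 sample each, tail replicate 2 and DRG replicate 1. In the Sox2-GFP cultures both groups were low. *Dlx1* was at 1, 4 and 1 counts in brain NSCs and 9 to 13 counts in lung pNSCs, 5.12-fold higher, and *Dlx2* at 2 to 5 and 3 to 7 counts, with overlapping levels.

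**Figure D2:**
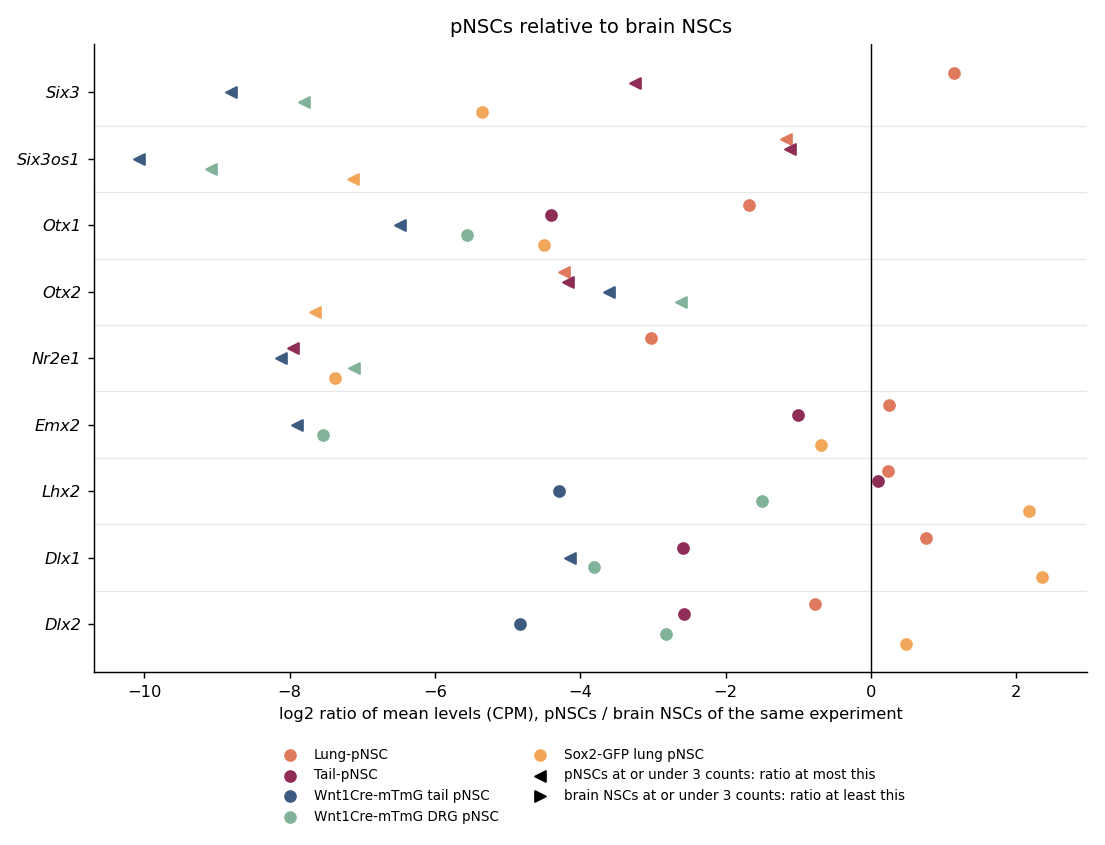
Log2 ratio of the mean level in each pNSC group to that in the brain NSCs of the same experiment, with 1 row per member and 1 colour per comparison. Triangles are bounds, where every pNSC sample was at or under 3 counts. All 9 members lie left of 0 in both Wnt1Cre-mTmG comparisons, and 4 lie right of 0 in Lung-pNSC.

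Counted over members, Lung-pNSC had both samples below Brain-NSC for 5 of 9 and above it for 4 of 9, where 32.6% and 29.8% of the 16948 genes tested did so. Tail-pNSC was below for 8 of 9 and above for *Lhx2*, where 32.3% and 34.5% of all genes were. Wnt1Cre-mTmG tail pNSCs were below for 9 of 9 (36.7% of 14448 genes, with 37.7% above) and DRG pNSCs for 9 of 9 (27.9%, with 31% above). Sox2-GFP lung pNSCs were below for 6 of 9 (33.7% of 16234 genes), above for *Lhx2* and *Dlx1* (33.9%), and overlapped for *Dlx2*. These values chose the members, so nothing is read from the counts. Of the 9 members, 8 passed the filter on low counts in the first experiment (all but *Six3os1*), 9 in the Wnt1Cre-mTmG experiment and 7 in the Sox2-GFP experiment (all but *Dlx1* and *Dlx2*). Lung-pNSC and Tail-pNSC share the Brain-NSC samples, and the 2 Wnt1Cre-mTmG pNSC groups share their brain NSCs. More than 3 counts in every sample were found for 9 members in Brain-NSC and in Wnt1Cre-mTmG brain NSCs and for 7 in Sox2-GFP brain NSCs. In pNSCs the number was 7 in Lung-pNSC, 4 in Sox2-GFP lung pNSCs, 3 in Tail-pNSC and 1, *Lhx2*, in each Wnt1Cre-mTmG pNSC group.

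DRG NCSCs, cultured stem cells of the peripheral ganglion, were below the Wnt1Cre-mTmG brain NSCs for 7 of 9 members, where 39.7% of 14448 genes were and 41.1% were above. *Lhx2* was 90.4-fold lower, and 6 members were at or under 3 counts in every NCSC sample. *Dlx1* was above in all 3 samples, 1.83-fold higher, and *Dlx2* overlapped, with 2.27, 2.84 and 3.32 CPM against 2.14, 2.80 and 2.79 CPM. In contrast, DRG pNSCs had less *Dlx1* than DRG NCSCs in each sample and more *Lhx2*.

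The levels in the brain NSCs entered the choice of members, so differences among the 3 brain NSC groups are also given without a test, as fold changes fitted by edgeR over all 28 samples. *Six3os1* did not pass the filter on low counts in the fit of the first experiment, nor *Dlx1* and *Dlx2* in the Sox2-GFP fit, so their fold changes rest on the groups in which they were high. Most members differed by at least 2-fold between some of the groups, and *Nr2e1* and *Otx1* between none. Reporter line, experiment and any difference in age or strain background cannot be told apart here.

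Wnt1Cre-mTmG brain NSCs were at least 2-fold from Brain-NSC in 4 of 9 members, all higher. Over all 17393 genes, 12.5% were called different at an edgeR Benjamini-Hochberg adjusted p under 0.05 and at least 2-fold (9.12% higher and 3.35% lower), and nothing is read from the members' counts beside it. *Six3os1* was higher by 8.73 on the log2 scale, *Six3* by 5.34 and *Emx2* by 1.75. No error is given for these fitted values. The size of the *Six3os1* value is uncertain, since Brain-NSC had only 0.244 and 0.456 CPM. *Dlx2* was higher by 1.02, just past 2-fold. It was short of 2-fold without Brain-NSC replicate 2 (log2 0.81) and without Wnt1Cre-mTmG replicate 2 or 3 (0.97 and 0.96). *Nr2e1* differed by -0.04.

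Sox2-GFP brain NSCs were at least 2-fold from Brain-NSC in 6 of 9 members, where 19% of genes were called (11.9% higher and 7.09% lower). *Six3os1*, *Otx2* and *Six3* were higher, by 5.78, 3.27 and 2.70 on the log2 scale. *Dlx1*, *Dlx2* and *Lhx2* were lower, at -4.06, -2.83 and -2.05. The *Dlx* values rest on 1 to 5 counts per Sox2-GFP sample, so their size is uncertain. Without Sox2-GFP replicate 2 the *Dlx1* value was -4.81. Against the Wnt1Cre-mTmG brain NSCs, the Sox2-GFP brain NSCs were at least 2-fold away in 7 of 9 members, where 15.5% of genes were called (7.83% higher and 7.68% lower). *Otx2* alone was higher, by 4.03. *Six3os1*, *Six3*, *Emx2*, *Lhx2*, *Dlx1* and *Dlx2* were lower, from -2.52 on the log2 scale for *Emx2* to -4.50 for *Dlx1* (-5.26 without Sox2-GFP replicate 2). Levels were thus highest in Sox2-GFP brain NSCs for *Otx2* and in Wnt1Cre-mTmG brain NSCs for *Six3*, *Six3os1* and *Emx2*. The ratios of pNSCs to brain NSCs above carry these differences in their denominators.

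**Figure D3:**
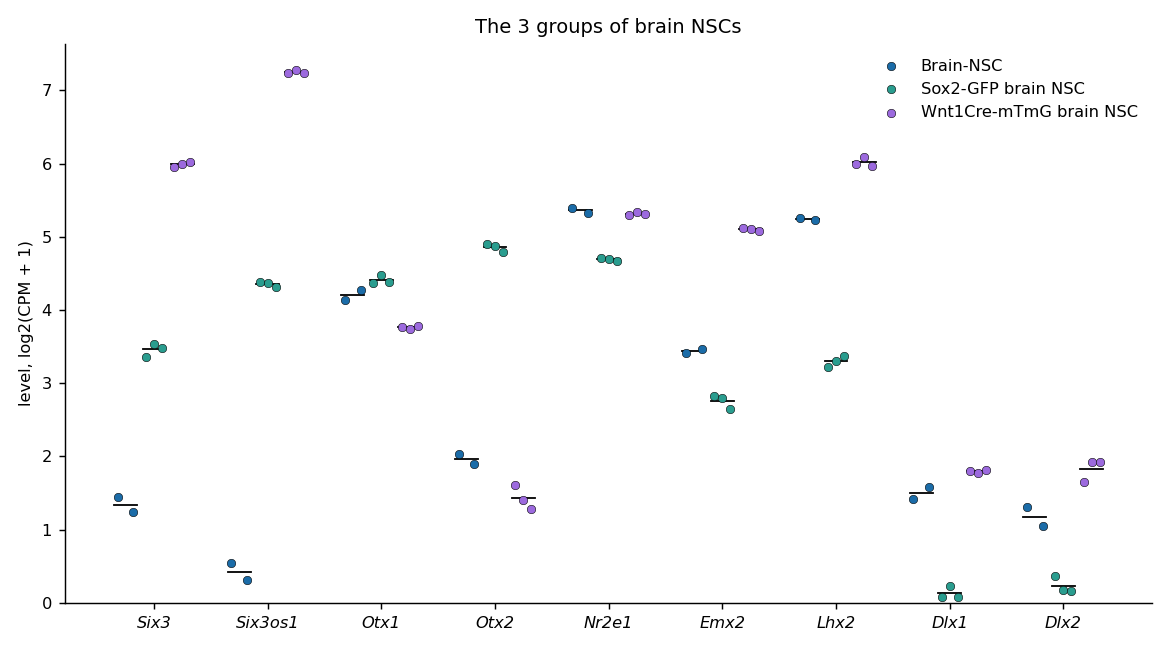
Level of each member in the 3 groups of brain NSCs, as log2 of CPM plus 1, with 1 point per sample and a line at the mean. *Nr2e1* and *Otx1* lie close together in all groups, *Six3* and *Six3os1* are highest in Wnt1Cre-mTmG brain NSCs, and *Otx2* is highest in Sox2-GFP brain NSCs.

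A list of 35 other forebrain genes, none of them a member, was tested in the comparisons of pNSCs and DRG NCSCs with brain NSCs, by edgeR and at the same limits of adjusted p and fold. It holds factors of the rostral forebrain and eye field, cortex, ventral forebrain and diencephalon, and antisense partners of members. Since these genes were listed with earlier results of the data known, the counts are no independent support. Of the 21 tested in any of the 5 comparisons of pNSCs with brain NSCs, 16 were called in at least 1 and 9 in at least 3, or 76.2% and 42.9%, where 30.7% and 7.16% of 17225 genes were.

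*Gsx1*, a ventral forebrain homeodomain factor, fell in all 5. It was at 3.56 CPM in Brain-NSC, 7.20 CPM in Wnt1Cre-mTmG brain NSCs and 1.45 CPM in Sox2-GFP brain NSCs, and at most at 0.548 CPM in the mean of each pNSC group. Lung-pNSC was 6.5-fold lower and Tail-pNSC at least 22-fold lower. Wnt1Cre-mTmG tail pNSCs were 31.0-fold lower, DRG pNSCs at least 25.8-fold and Sox2-GFP lung pNSCs at least 10.4-fold lower. Its order of groups thus set brain NSCs above pNSCs in each experiment.

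Other genes of the list were called lower in part of the comparisons. *Dmrta2*, a regulator of cortical midline development, fell in Lung-pNSC (2.56-fold), Tail-pNSC (5.84-fold) and Wnt1Cre-mTmG tail pNSCs (12.9-fold). It was also lower in DRG pNSCs (1.79-fold) and Sox2-GFP lung pNSCs (1.74-fold), both short of the 2-fold limit. *Barhl2*, a diencephalic factor, fell in both Wnt1Cre-mTmG comparisons and in Sox2-GFP lung pNSCs, where it was at least 17.6-fold lower. *Emx2os*, antisense to *Emx2*, fell in Tail-pNSC (5.66-fold), Wnt1Cre-mTmG tail (at least 19.8-fold) and DRG pNSCs (at least 9.92-fold). *Nkx2-1*, which specifies ventral forebrain as well as lung and thyroid, fell from 0.807 CPM in Wnt1Cre-mTmG brain NSCs to no count in tail and DRG pNSCs, on at most 10 counts per sample.

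*Foxb1* and *Sp8* went the other way in the tail. *Foxb1*, a forkhead factor of the hypothalamus and of other parts of the neural tube, rose to 54.7 ± 1.39 CPM (s.d., n = 3) in Wnt1Cre-mTmG tail pNSCs from 0.623 ± 0.138 CPM, 87.8-fold. It rose at least 60.7-fold in Tail-pNSC and at least 9.91-fold in Lung-pNSC. In Sox2-GFP lung pNSCs it fell 3.37-fold, from 12.5 to 3.72 CPM. Its fall in DRG pNSCs rests on 5 to 9 counts per brain NSC sample and on 0 to 5 counts per pNSC sample (edgeR adjusted p = 0.0413). That call was lost without brain NSC replicate 1 or 3 (log2 fold change -1.73 and -1.55, against -1.72 with all samples) and without DRG pNSC replicate 2 or 3 (-1.45 and -1.18), and the value was -3.50 without DRG pNSC replicate 1. *Sp8*, a zinc-finger factor of the forebrain, limb bud and tail, rose 105-fold in Wnt1Cre-mTmG tail pNSCs, to 47.2 ± 1.02 CPM, and at least 12.4-fold in Tail-pNSC. In DRG pNSCs it fell, from 5 counts in each brain NSC sample to none. *Vax2*, an eye field factor, rose 10.6-fold in Lung-pNSC, to 1.87 ± 0.112 CPM, with a fitted log2 fold change of 3.37 that was 5.07 without Brain-NSC replicate 1 and 2.58 without replicate 2.

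Counted over the list, 7 of the 20 genes tested were called in Lung-pNSC (3 higher, 4 lower), or 35%, where 8.71% of all genes were (4.56% higher, 4.15% lower). *Foxb1* and *Vax2* were among the higher ones, and *Dmrta2* and *Gsx1* among the lower. In Tail-pNSC 9 of 20 were called (3 higher, 6 lower), or 45%, beside 10.9% of all genes (4.31% higher, 6.59% lower). *Bcl11b*, *Foxb1* and *Sp8* were the higher ones. In Wnt1Cre-mTmG tail pNSCs 11 of 14 were called (3 higher, 8 lower), or 78.6%, beside 18.2% (9.16% higher, 9.05% lower). *Foxb1* and *Sp8* were among the higher ones. In DRG pNSCs 9 of 14 were called, all lower, or 64.3%, beside 9.53% (3.12% higher, 6.41% lower). In Sox2-GFP lung pNSCs 8 of 15 were called (1 higher, 7 lower), or 53.3%, beside 15.7% (5.76% higher, 9.99% lower). The higher one was *Eomes*. In DRG NCSCs 12 of 14 were called (1 higher, *Foxd1*, and 11 lower), beside 36.9% (22.1% higher, 14.8% lower). Of the calls, *Foxd1* in DRG pNSCs and *Dmrt3* and *Nkx2-1* in Sox2-GFP lung pNSCs were at or under 3 counts in every sample of both groups, so no fold is given for them. In fits of the 2 groups alone, 5 genes were called in DRG pNSCs and 5 in Sox2-GFP lung pNSCs, of 9 and 11 tested. The median log2 ratio, with bounds in place of groups at or under 3 counts, was taken over the 12 or 13 genes of each comparison that were above 3 counts in a sample of either group. It was -0.51 in Lung-pNSC, -0.72 in Tail-pNSC, -2.58 in Wnt1Cre-mTmG tail, -1.53 in DRG and -0.50 in Sox2-GFP lung pNSCs. Over all 20 list genes tested, the median fitted log2 fold change was 0 in Lung-pNSC and 0 in Tail-pNSC, where 7 of them were at or under 3 counts in both groups. The median of all genes was between 0 and 0.013.

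**Figure D4:**
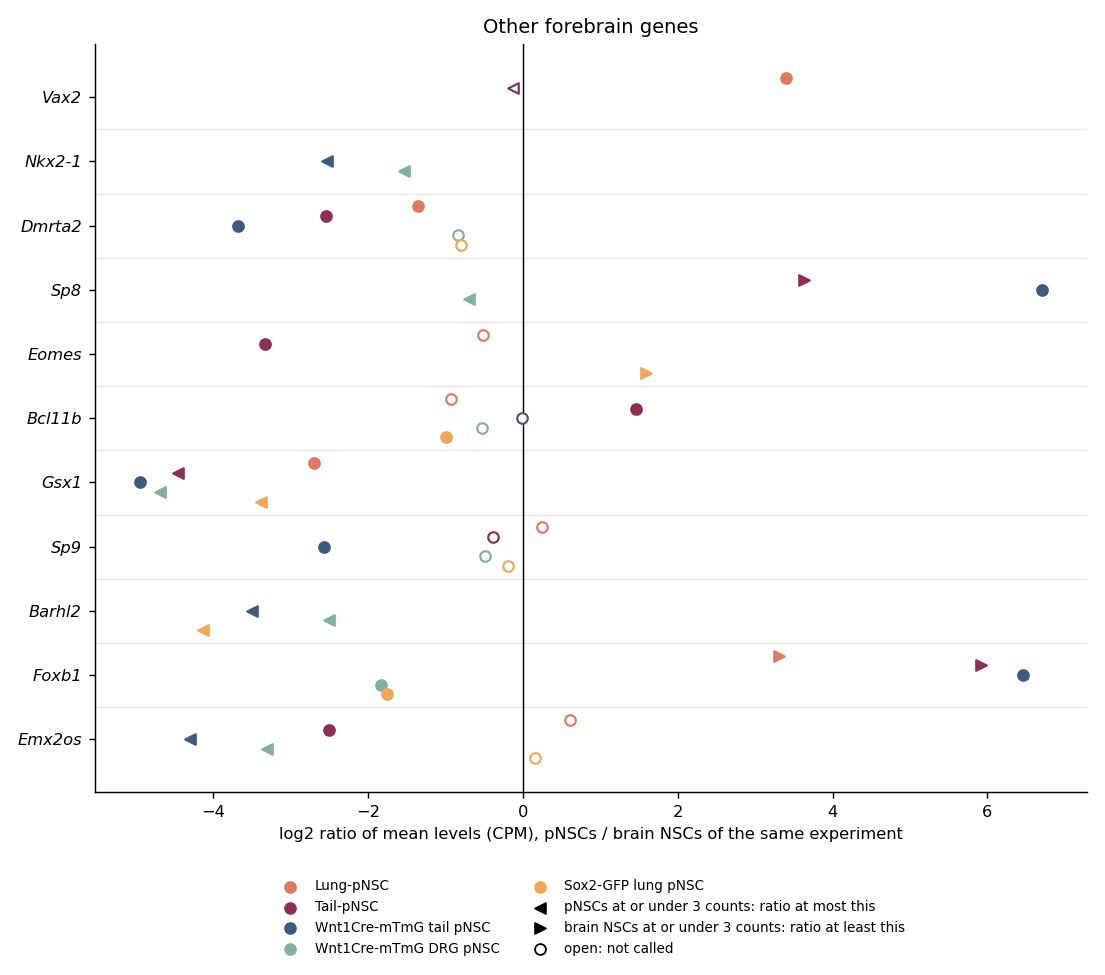
Log2 ratio of the mean level in pNSCs to that in brain NSCs for other forebrain genes, shown where tested, called in at least 1 comparison and above 3 counts in a sample of either group. Filled symbols were called by edgeR, open symbols were not, and triangles are bounds. *Gsx1* lies left of 0 in all 5 comparisons, and *Foxb1* and *Sp8* lie right of 0 in both tail comparisons.

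The genes next to the members were tested as well, since the choice of members did not use them. On each side of each member the nearest protein-coding gene that passed the filter was taken, which gave 14 genes in each comparison. *Six2*, next to *Six3*, did not pass the filter in the Wnt1Cre-mTmG and Sox2-GFP fits, and *Srbd1*, 355 kb from *Six3*, took its place. Called were 1 in Lung-pNSC, 2 in Tail-pNSC, 2 in Wnt1Cre-mTmG tail pNSCs and none in DRG or Sox2-GFP lung pNSCs. By adjusted p alone, 10 and 12 of 14 passed in the latter comparisons, where 45.9% and 65.5% of all genes did, and DESeq2 called none in either. The background of the calls was 8.71%, 10.9%, 18.2%, 9.53% and 15.7% of all genes, and nothing is read from the counts beside it. *Ostm1* lies 190 bases from *Nr2e1* and is needed for lysosomes of bone and brain. Its log2 fold change was 0.08 ± 0.06 in Lung-pNSC and -0.78 ± 0.07 in Tail-pNSC, the latter short of 2-fold. The ± values of neighbours are nominal SEs, the size of the fold change divided by the square root of its edgeR F. In Tail-pNSC, *Nr2e1* itself was at least 248-fold lower. *Metap1d*, 2.92 kb from *Dlx1* and the gene of a mitochondrial aminopeptidase, was between -0.07 and 0.18 on the log2 scale in all 5 comparisons. The median size of the change, over neighbours, was 0.13 to 0.30 on the log2 scale, and over all genes 0.21 to 0.38.

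The called neighbours lie by *Six3* and the *Dlx* pair. *Camkmt*, a lysine methyltransferase gene 155 kb from *Six3*, rose by 1.32 ± 0.12 in Tail-pNSC (edgeR adjusted p = 1.06e-27) and by 2.04 ± 0.10 in Wnt1Cre-mTmG tail pNSCs (1.37e-11), where *Six3* had no count. *Six2*, a paralogue of *Six3* 55.0 kb away that is best known in kidney and craniofacial mesenchyme, rose by 1.37 ± 0.38 in Lung-pNSC (edgeR adjusted p = 0.00132), where *Six3* was also above Brain-NSC. Without Brain-NSC replicate 2 no neighbour was called in Lung-pNSC. *Six2* had no count in Tail-pNSC, at least 4.64-fold lower. *Itga6*, a laminin receptor subunit, rose by 1.89 ± 0.04 in Wnt1Cre-mTmG tail pNSCs (edgeR adjusted p = 2.36e-16), to 538 CPM from 146 CPM.

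**Figure D5:**
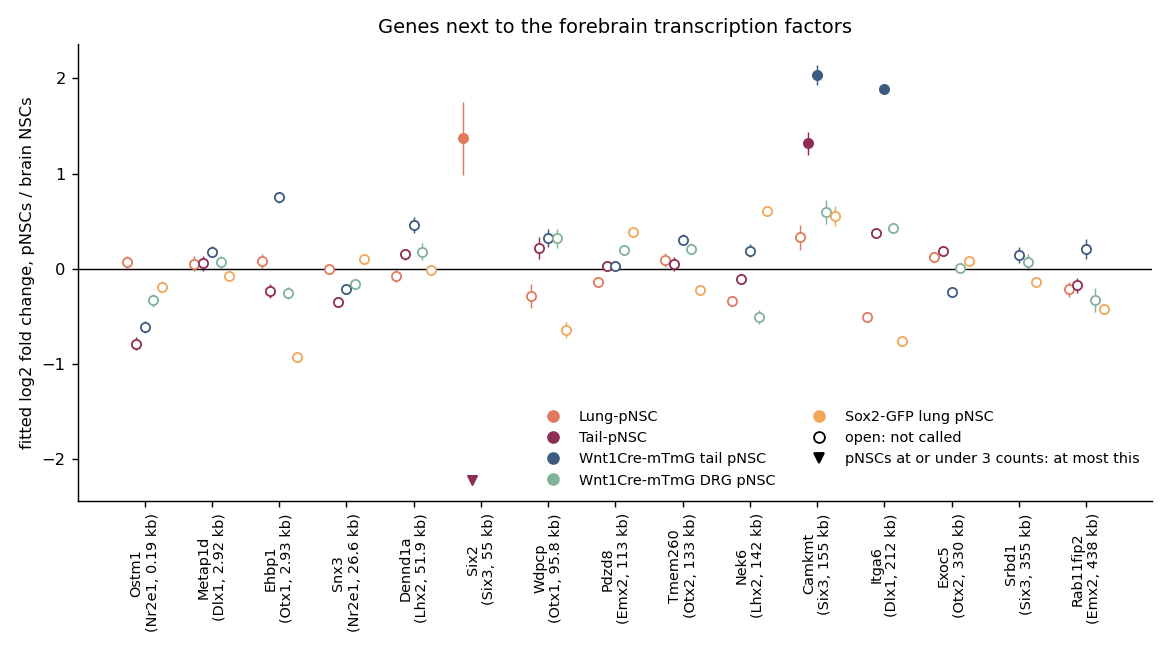
Fitted log2 fold change of the nearest tested protein-coding genes on each side of the members, with a nominal SE as a bar. The SE is the size of the fold change divided by the square root of its edgeR F. Genes are ordered by distance, which is given in kb beside the member. Filled symbols were called, and the triangle is the bound for *Six2* in Tail-pNSC, computed from mean levels. Most of the values lie within 1 of 0, and the called ones are of *Six2*, *Camkmt* and *Itga6*.

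Correlations between members were taken over the means of the 11 groups (log2 of CPM plus 1), as a description in which groups share experiments. A choice of members partly on low levels in pNSCs can itself raise r between them, so nothing is read from its size. Pearson's r was 0.94 for *Six3* and *Six3os1*, 0.97 for *Otx1* and *Nr2e1*, 0.80 for *Otx1* and *Otx2* and 0.90 for *Dlx1* and *Dlx2*. *Lhx2* had an r of at most 0.62 with any other member, that with *Emx2*, and the *Dlx* genes of at most 0.34 with the members outside their pair. Over the 17392 other genes of the 28-sample fit, the 3 genes with the highest r included another member for *Six3*, *Six3os1*, *Otx1*, *Nr2e1* and *Dlx1*. For *Six3* they were *2900052N01Rik* (0.96), *Six3os1* and *Barhl2* (0.89), and for *Six3os1* they were *Six3*, *2900052N01Rik* (0.93) and *Barhl2* (0.88). For *Otx1* they were *Nr2e1*, *Myh15* (0.94) and *9330198I05Rik* (0.88), and for *Nr2e1* they included *Otx1* and *Myh15* (0.95). For *Emx2* they included its antisense gene *Emx2os* (0.93) and *E330013P04Rik* (0.92). For *Otx2* they were *Rgr* (0.97), *Sirt2* (0.93) and *Uba1y* (0.89). For *Lhx2* they were *Gcfc2* (0.95), *Ppp2r1b* (0.94) and *Lor* (0.93). For *Dlx1* they were *Qpctl* (0.91), *Dlx2* and *Rnf152* (0.88), and for *Dlx2* they included *Minar1* (0.93) and *Steap1* (0.93). These names depend on the measure: Spearman's correlation kept 4 of the 27 and Pearson's over the 28 samples kept 21.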

How the data were processed

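The authors isolated poly-A RNA, made libraries with the NEBNext Ultra kit, sequenced them single-end on a NextSeq500, and used HISAT2, Cufflinks and HTSeq on GRCm38, per the labels. The deposited values are raw counts per gene; strand setting and annotation release are not given in the sources used here. All columns matched a sample label. Groups came from the labels. The members, gene lists and tests were chosen with earlier results of these data known. Counts were scaled by TMM in edgeR 4.0.16 (R 4.3.3), filtered with filterByExpr (minimum count 10, minimum total 15) and tested by a two-sided quasi-likelihood test with Benjamini-Hochberg adjustment over all genes of a comparison. There was 1 fit per experiment, the Sox2-GFP fit including the 2 lung cell samples, and 1 fit over all 28 samples for brain NSCs, whose member values are given without a p. Calls needed an adjusted p under 0.05 and 2-fold. On simulated counts 200 of 200 genes changed 4-fold were recovered in each of the 4 fits. The changed genes were drawn only from genes of higher level, so this does not cover calls at low counts. Named were all members, list genes called in at least 3 of 5 comparisons or, with a mean of at least 1 CPM in a group, among the 4 largest calls of one, called neighbours, and the 3 genes most like each member; others complete a count or direction and were chosen after their values were seen. Some genes that the rule names are not reported here. Positions are from GENCODE M21. Alternatives were upper-quartile scaling, DESeq2 1.42.0, no filter, the 2 groups alone, a replicate block, adjusted p alone, each sample left out and, added after seeing the data, no DRG NCSC samples.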

Additional observations from a re-analysis of the deposited data

Results flagged for a closer look

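The members below stood above the brain NSCs in every pNSC sample of one comparison and below them in every pNSC sample of another. The difference between comparisons was not tested, and levels in the brain NSC denominators differ as well. Tissue of origin, reporter line and, for Lung-pNSC, donor age also differ between comparisons and cannot be told apart. *Six3* had a log2 ratio of pNSC to brain NSC levels of 1.14 in Lung-pNSC and at most -8.80 in Wnt1Cre-mTmG tail pNSCs. *Emx2* had 0.24 in Lung-pNSC and at most -7.89 in Wnt1Cre-mTmG tail pNSCs. *Lhx2* had 2.17 in Sox2-GFP lung pNSCs and -4.29 in Wnt1Cre-mTmG tail pNSCs. *Dlx1* had 2.36 in Sox2-GFP lung pNSCs, on 9 to 13 counts, and at most -4.15 in Wnt1Cre-mTmG tail pNSCs.

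Of the other forebrain genes, 4 were called in opposite directions, again with the difference not tested. *Foxb1* had a log2 ratio of 6.46 in Wnt1Cre-mTmG tail pNSCs and -1.84 in DRG pNSCs, where its call rests on single-digit counts. *Sp8* had 6.71 in Wnt1Cre-mTmG tail pNSCs and at most -0.69 in DRG pNSCs, on 5 counts per brain NSC sample. *Eomes*, a factor of cortical intermediate progenitors, had at least 1.58 in Sox2-GFP lung pNSCs and -3.33 in Tail-pNSC. *Bcl11b*, a factor of deep-layer cortical neurons, had 1.46 in Tail-pNSC and -1.0 in Sox2-GFP lung pNSCs. The latter call was lost without Sox2-GFP brain NSC replicate 2 or 3 (fitted log2 fold change of *Bcl11b* -0.96 and -0.99) or lung pNSC replicate 2 (-0.84). *Eomes* and *Bcl11b* were named after their values were seen. The groups had 2 or 3 samples, too few to check the values of a single gene for an outlying sample.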

How the results depend on the processing

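None of the 45 ratios of member levels between pNSCs and brain NSCs changed direction in 324 recalculations (upper-quartile or no scaling, or 1 sample left out). Where the samples of the 2 groups did not overlap, leaving 1 out could not turn a ratio of means. That was so for all but *Dlx2* in Sox2-GFP lung pNSCs, and the members were chosen partly on these values. Nothing is therefore read from the kept directions. Of the recalculations, 64 moved by more than the SE of the difference between the group means of log2 levels, 57 of them with 1 sample left out. Of 1256 alternative results for single genes, 1220 kept their side of the threshold, and no called gene turned direction. Genes that failed the filter of an alternative fit are not among the 1256, so calls lost in that way are not counted. In the fits of the 2 groups alone, 96 of 124 results were left. The 1256 include results of members among brain NSCs, from which nothing is read. Counts of other forebrain genes moved by over 1.5 times only in the fits of the 2 groups alone, from 9 to 5 in DRG pNSCs and from 8 to 5 in Sox2-GFP lung pNSCs, where fewer genes passed the filter. Without the 2-fold limit, neighbours called went from 1 to 7 in Lung-pNSC, 2 to 8 in Tail-pNSC and 2 to 11 in Wnt1Cre-mTmG tail pNSCs. In DRG pNSCs they went from 0 to 10 and in Sox2-GFP lung pNSCs from 0 to 12. By adjusted p alone, 40.3%, 49.1%, 65.5%, 45.9% and 65.5% of all genes passed in these comparisons. With 1 sample left out, other forebrain genes called ranged from 7 to 8 (Lung-pNSC), 9 to 10 (Tail-pNSC), 10 to 11 (Wnt1Cre-mTmG tail), 7 to 8 (DRG pNSC), 6 to 7 (Sox2-GFP lung) and 11 to 13 (DRG NCSC), and neighbours from 0 to 1 in Lung-pNSC. Without the DRG NCSC samples, 10 and 7 other forebrain genes were called in Wnt1Cre-mTmG tail and DRG pNSCs. The replicate numbers did not pair the samples: deviations of same-numbered samples correlated at -0.0037 to 0.0487. With a replicate block, 7 other forebrain genes were called in Lung-pNSC, 9 in Tail-pNSC and 11 in Wnt1Cre-mTmG tail pNSCs. The numbers were 7 in DRG pNSCs, 7 in Sox2-GFP lung pNSCs and 12 in DRG NCSCs. Depth limits every bound given, among them those of *Sp8* in DRG pNSCs and *Six3os1* in Lung-pNSC and Tail-pNSC.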
